A study of Mus musculus with 8 samples.

Results

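The serine and arginine rich splicing factors (SR proteins) Srsf1, Srsf2, Srsf3, Srsf5, Srsf6, Srsf7, Srsf10 and Srsf11 and the kinases Clk1 and Clk4, which phosphorylate SR proteins, were followed at the RNA level in mouse pluripotent stem cells. These 10 genes were chosen by name, with earlier results of these data known. They were matched by symbol to 10 of the 54838 Ensembl genes in the table, and all 10 were expressed well enough to be tested. Messenger RNA came from male mouse induced pluripotent stem cells, called ESC in the labels, in 4 states with 2 libraries each. Asynchronous cells, labelled ASYN, came from a cycling population. Mitotic cells, labelled MIT, had been passaged onto gelatin, treated with the microtubule poison nocodazole (200 ng/ml for 6 h) and shaken off the plate. Early G1 (EG1) and late G1 (LG1) cells had been treated in the same way and then washed and plated on gelatin for 1 h and 3 h, where the order of the times is read from the group names. All cells were grown in serum with LIF and inhibitors of MEK and GSK3 on irradiated feeder cells, and 2 independent clones served as biological replicates, per the labels, which do not say which clone gave which library. Nocodazole, the passage to gelatin and the shake-off therefore separate all 6 synchronised libraries from the asynchronous ones, and in any comparison with asynchronous cells these steps and the cell cycle state cannot be told apart.

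SR proteins bind exonic enhancer sequences of pre-mRNA through an RNA recognition motif and recruit the spliceosome through a tail of arginine and serine repeats. Phosphorylation of that tail by the SRPK kinases in the cytoplasm and the CLK kinases in the nucleus carries them into the nucleus and releases them from nuclear speckles, and during mitosis transcription and splicing largely pause while speckles disperse. Many SR genes limit their own output through a cassette exon with a premature stop codon, whose inclusion sends the transcript to nonsense-mediated decay, and Clk1 transcripts are often held in the nucleus with unspliced introns. Counts per gene add up all these forms: in the GENCODE annotation of GRCm38 the 10 genes had 103 transcripts, of which 31 were protein coding, 17 were marked for nonsense-mediated decay in 9 of the genes, and 39 retained an intron, also in 9 genes. A change given here is therefore a change in total counted transcript, and the share of each form was not measured.

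Total counts lay between 20410621 and 25615244 per library. Replicates differed most in asynchronous cells, with a mean chi-square per gene between replicates of 65.4, against 22.3 for the mitotic pair, 3.96 for the early G1 pair and 3.00 for the late G1 pair, and the differences between replicates 1 and 2 correlated between the mitotic and asynchronous groups (0.621 across 12037 genes, which are not independent replicates). All 12 pluripotency markers examined were present in every library, and their summed level ran from 5737 to 7574 CPM (counts per mega-count of the TMM-scaled library total). The summed level of 25 fibroblast markers, listed for the feeder cells, was 1807 to 2269 CPM in the 6 synchronised libraries, against 4519 and 5096 CPM in the asynchronous ones, and Fn1, Sparc and Vim, each at 216 CPM or more in every library, made up much of the sum. Col1a1 stood at 7.58 and 10.1 CPM in mitotic cells, against 509 and 554 CPM in asynchronous cells. The sum of 12 macrophage markers was 86.1 and 85.6 CPM in asynchronous libraries, 118 and 102 CPM in mitotic ones and 41.5 to 49.3 CPM in the G1 libraries. Cd68 made up most of the G1 sums, at 39.3 to 44.9 CPM. It stood at 64.0 and 52.7 CPM in asynchronous and 54.9 and 39.9 CPM in mitotic libraries.

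The 8 SR genes lie on several chromosomes with promoters rich in G and C, and 3 promoters are printed here because Srsf6 and Srsf7 had the most alike profiles of all pairs and Srsf5 was the member called after release. The 250 bases before the RefSeq start (GRCm38.p6) are given 5′ to 3′ on the strand of the gene. Capitals mark matches on either strand to GGGCGG (GC box), CCGGAAG (ETS site), TGACG (core of the cyclic AMP response element), CCAAT or CACGTG (E-box).
Srsf6, chr2:162931258-162931507, plus strand: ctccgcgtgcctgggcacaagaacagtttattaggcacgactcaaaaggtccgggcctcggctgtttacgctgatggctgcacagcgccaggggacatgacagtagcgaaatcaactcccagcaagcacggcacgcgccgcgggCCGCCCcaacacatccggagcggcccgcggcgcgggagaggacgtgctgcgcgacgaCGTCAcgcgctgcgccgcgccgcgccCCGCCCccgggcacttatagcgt
Srsf7, chr17:80207306-80207555, minus strand: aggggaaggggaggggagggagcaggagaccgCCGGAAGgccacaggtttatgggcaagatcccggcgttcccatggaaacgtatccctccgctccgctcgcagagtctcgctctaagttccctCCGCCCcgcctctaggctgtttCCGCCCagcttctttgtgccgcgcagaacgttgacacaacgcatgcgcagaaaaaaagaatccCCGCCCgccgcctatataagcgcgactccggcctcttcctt
Srsf5, chr12:80945249-80945498, plus strand: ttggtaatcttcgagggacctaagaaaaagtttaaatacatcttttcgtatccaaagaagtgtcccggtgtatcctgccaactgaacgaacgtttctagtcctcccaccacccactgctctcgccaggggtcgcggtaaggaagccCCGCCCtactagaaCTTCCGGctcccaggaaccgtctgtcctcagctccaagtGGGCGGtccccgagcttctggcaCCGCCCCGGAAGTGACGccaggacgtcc
Srsf6 and Srsf7 shared only GC boxes among these motifs, 2 and 3 of them. In Srsf5 a GC box and an ETS site overlap near the start, and TGACG follows directly after them. Promoters were found for 9 of the 10 genes. GC boxes lay in 8 of these 9, against 32.7% of all 32851 promoter windows of that length, TGACG in 7, against 17.8%, CCGGAAG in 3, against 6.91%, CCAAT in 3, against 33.8%, TATAAA in 2, against 12.4%, and CACGTG in 0, against 6.02%. The full element TGACGTCA lay in the Clk4 window and in 1.55% of all windows. The 9 genes' windows were 56.8% to 72% G and C, against a median of 52.4% over all windows, and a motif match is only a description of these letters.

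Relative to the library total, all 8 SR genes stood higher in mitotic than in asynchronous cells. The SR genes rose 1.28- to 2.05-fold, while Clk1 and Clk4 were not called. The 8 higher members of 10 stood against a background in which 40.7% of the 19101 genes tested were called, 18.3% as higher and 22.4% as lower (edgeR quasi-likelihood test, Benjamini-Hochberg adjusted p under 0.05 over all genes tested). The median log2 change was 0.66 over the members, against -0.049 over all genes tested. Since the members were chosen with earlier results of these data known, such shares and medians, here and below, only describe them and do not test the set. Groups did not overlap for 9 members, nor for 65.2% of all genes tested. Summed over the 10 members the level was 3479 and 3325.5 CPM in mitotic libraries, against 2239 and 1906 CPM in asynchronous ones. In bulk RNA, more cells that express a gene and more RNA per cell cannot be told apart. CPM is also relative to the library total, so it can rise without more transcript per cell, and the amount per cell was not measured.

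**Figure D1:**
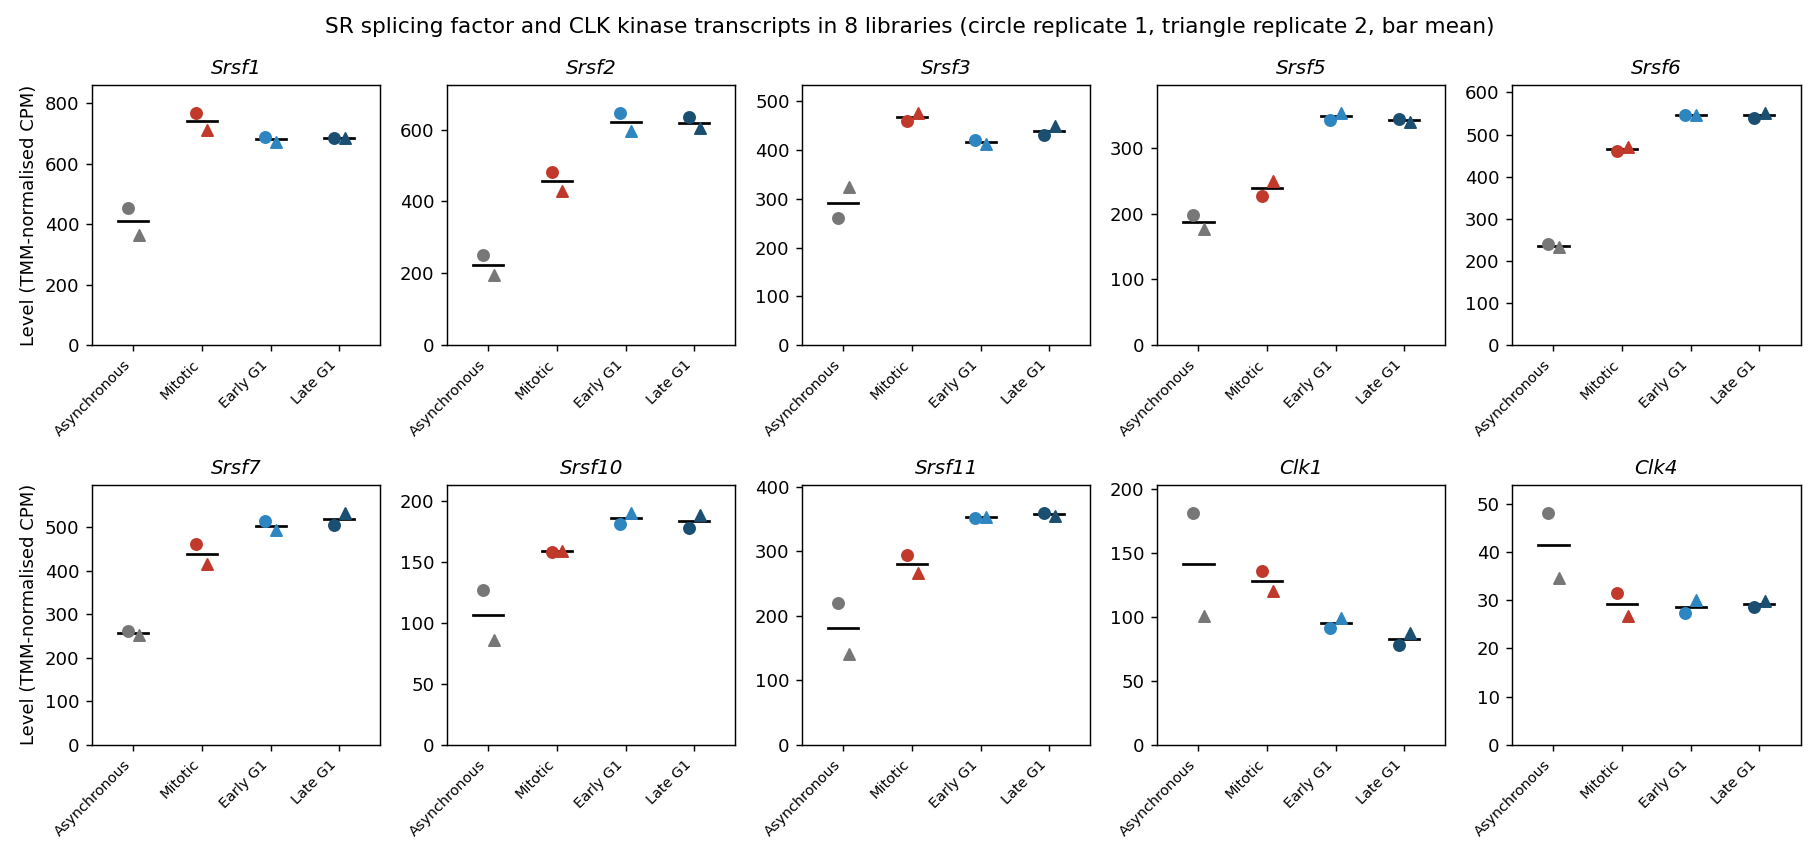
Level of each of the 10 transcripts (y axis, TMM-normalised CPM from 0) in asynchronous, mitotic, early G1 and late G1 cells (x axis), with a circle for replicate 1, a triangle for replicate 2 and a bar for their mean. Every SR gene is lowest in the asynchronous libraries, while Clk1 is highest in asynchronous replicate 1 (182 CPM) and lowest in late G1 (77.9 and 87.8 CPM).

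Among the SR proteins that shuttle between nucleus and cytoplasm, Srsf1 (ENSMUSG00000018379, chromosome 11, 88047373 to 88053755, plus strand), the founding member first purified as SF2/ASF, stood at 769 and 712 CPM in mitotic cells, against 452 and 366 CPM in asynchronous cells. Srsf3 (ENSMUSG00000071172, chromosome 17, 29032628 to 29043373, plus strand), among the smallest SR proteins, stood at 459 and 477 CPM in mitotic cells, against 260.2 and 323.5 CPM in asynchronous cells. Srsf7 (ENSMUSG00000024097, chromosome 17, 80200080 to 80207307, minus strand), which carries a zinc knuckle beside its recognition motif, stood at 460 and 415 CPM in mitotic cells, against 262 and 252 CPM in asynchronous cells. In all of these both mitotic libraries lay above both asynchronous ones, and the log2 changes were 0.86 (SE 0.13) for Srsf1, 0.68 (SE 0.13) for Srsf3 and 0.77 (SE 0.11) for Srsf7, with edgeR adjusted p = 0.00178, 0.00461 and 0.00153.

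Srsf2 (ENSMUSG00000034120, chromosome 11, 116849901 to 116853094, minus strand), also known as SC35, a mark of nuclear speckles, stood at 483 and 429 CPM in mitotic cells, against 251 and 194 CPM in asynchronous cells. Its log2 change of 1.03 (SE 0.15, edgeR adjusted p = 0.00140) was the largest point estimate among the members. Its exons overlap those of Mettl23 and Mfsd11 on the opposite strand by 460 and 288 bases. These genes had 1261 and 3562 counts over the 8 libraries, against 87595 for Srsf2. The strand setting of the counting was not given, and any effect of the overlap on the Srsf2 counts was not tested. Srsf6 (ENSMUSG00000016921, chromosome 2, 162931528 to 162937121, plus strand), an SR protein with a pair of recognition motifs, stood at 461 and 471 CPM in mitotic cells, against 239 and 232 CPM in asynchronous cells (log2 0.98, SE 0.10, edgeR adjusted p = 0.00039). Replicates of Srsf6 lay close together in every state, unlike those of Srsf2.

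Srsf5 (ENSMUSG00000021134, chromosome 12, 80945504 to 80950507, plus strand), which like Srsf6 has a pair of recognition motifs, moved least of the SR genes, at 227 and 250 CPM in mitotic cells, against 197 and 176 CPM in asynchronous cells (log2 0.35, SE 0.12, edgeR adjusted p = 0.0404). Srsf10 (ENSMUSG00000028676, chromosome 4, 135855747 to 135869908, plus strand) encodes an SR-like protein that, in human cells, becomes a splicing repressor when it is dephosphorylated in mitosis. It stood at 158.7 and 159 CPM in mitotic cells, against 127 and 86.1 CPM in asynchronous cells. Srsf11 (ENSMUSG00000055436, chromosome 3, 158010473 to 158036639, minus strand), an SR-related protein, stood at 294 and 266 CPM in mitotic cells, against 220 and 141 CPM in asynchronous cells. Asynchronous replicates of Srsf10 and Srsf11 differed by 0.56 and 0.64 on the log2 scale, close to the changes themselves, which were 0.58 (SE 0.17) and 0.63 (SE 0.19), with edgeR adjusted p = 0.0295 and 0.0300.

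These 3 calls were the weakest. Those of Srsf5, Srsf10 and Srsf11 were lost without mitotic replicate 1, mitotic replicate 2 or any single G1 library (edgeR adjusted p from 0.0558 to 0.165) and in the fit of the mitotic and asynchronous libraries alone (0.0968 to 0.181), which left 5 members called, with 21.3% of all genes tested called. Without asynchronous replicate 2 the log2 changes of Srsf10 and Srsf11 were 0.33 and 0.34, and without asynchronous replicate 1 they were 0.89 and 0.99, each still called. Srsf1, Srsf2, Srsf3, Srsf6 and Srsf7 were called as higher in all 15 alternatives run, with log2 changes between 0.54 and 1.24.

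Neither kinase gene was called between mitotic and asynchronous cells. Clk1 (ENSMUSG00000026034, chromosome 1, 58410189 to 58424066, minus strand), the founding CLK kinase, stood at 136 and 120 CPM in mitotic cells, against 182 and 100.4 CPM in asynchronous cells, so the groups overlapped (log2 -0.14, SE 0.24, 95% interval -0.70 to 0.42, edgeR adjusted p = 0.676). Its direction turned on a single asynchronous library: Clk1 was called as higher without asynchronous replicate 1 (log2 0.36, edgeR adjusted p = 0.0317) and as lower without asynchronous replicate 2 (log2 -0.50, edgeR adjusted p = 0.00549). Clk4 (ENSMUSG00000020385, chromosome 11, 51261730 to 51281766, plus strand), the nearest relative of Clk1, stood at 31.5 and 26.8 CPM in mitotic cells, against 48.2 and 34.6 CPM in asynchronous cells. Its mitotic libraries lay below the asynchronous ones, but its change missed the threshold (log2 -0.51, SE 0.18, edgeR adjusted p = 0.0554) and passed it without asynchronous replicate 2 (log2 -0.73, edgeR adjusted p = 0.00187), while without asynchronous replicate 1 it was -0.24 (edgeR adjusted p = 0.179).

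**Figure D2:**
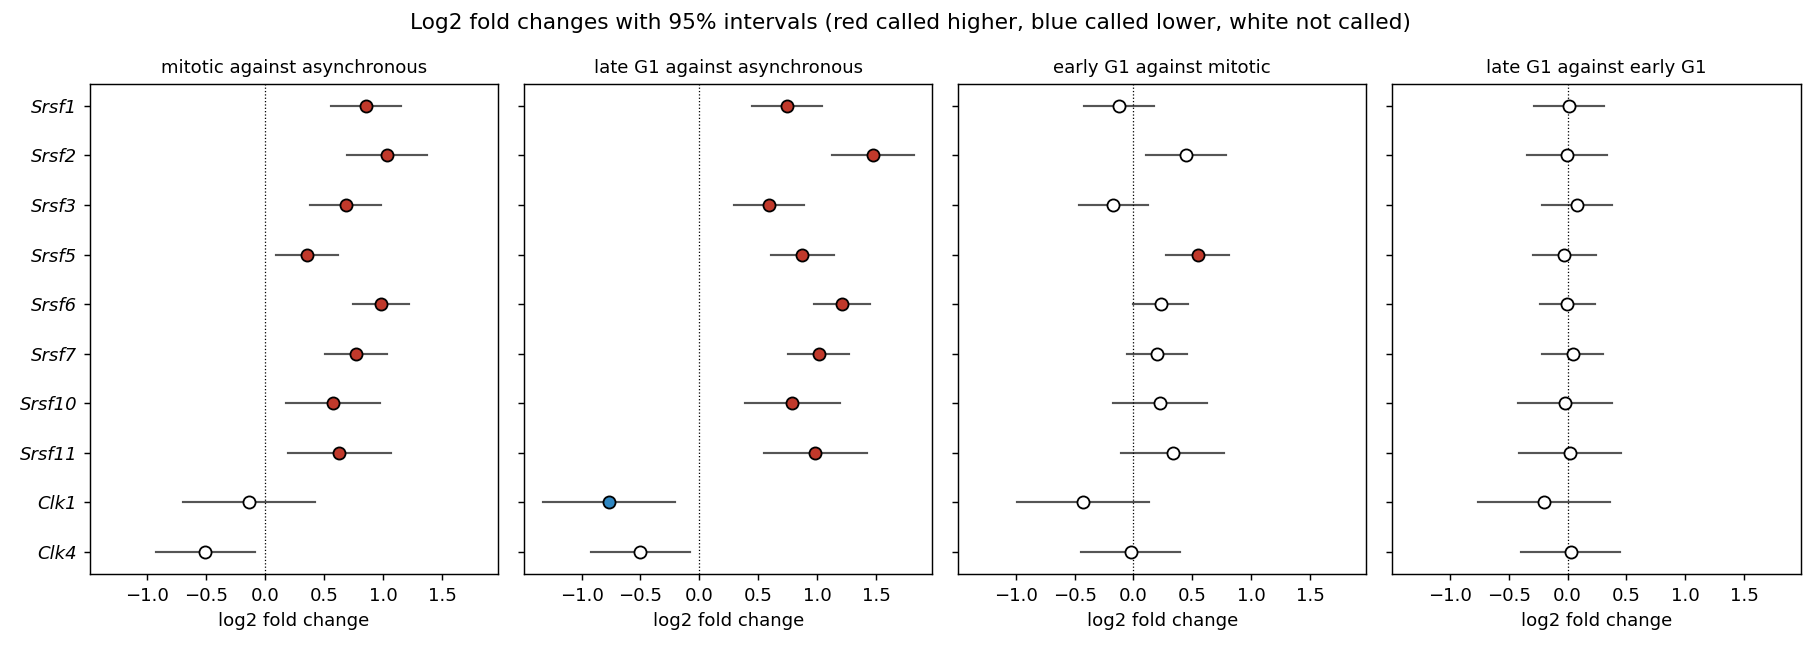
Log2 fold change of each member (points; lines are 95% intervals) in 4 comparisons, each fitted on all 8 libraries; red marks genes called higher, blue lower and white not called at an adjusted p under 0.05. The 8 SR genes lie right of 0 against asynchronous cells, Srsf5 is the member called between early G1 and mitotic cells, and no member is called between late and early G1.

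At 3 h after release the SR genes still stood above asynchronous cells and Clk1 stood below. In late G1, 8 members rose, Clk1 fell and Clk4 was not called, where 48.7% of all genes tested were called, 22.7% as higher and 26% as lower, and all 10 members had groups that did not overlap, as had 74.9% of all genes tested. The median log2 change was 0.83 over the members, against -0.029 over all genes tested. This comparison and the one of mitotic cells share the asynchronous libraries. Srsf2 stood at 637 and 604 CPM in late G1, against 251 and 194 CPM in asynchronous cells, a 2.78-fold rise (log2 1.48, SE 0.15, edgeR adjusted p = 0.000259). Srsf6 stood at 540 and 552 CPM in late G1, against 239 and 232 CPM in asynchronous cells, a 2.32-fold rise (edgeR adjusted p = 0.000138). In both genes each late G1 library stood well above each asynchronous one.

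Srsf7 rose 2.02-fold in late G1 (503 and 533 CPM, against 262 and 252 CPM in asynchronous cells) and Srsf11 1.98-fold (360.3 and 355 CPM, against 220 and 141 CPM). Srsf5 rose 1.83-fold, Srsf10 1.73-fold, Srsf1 1.68-fold and Srsf3 1.51-fold, with edgeR adjusted p from 0.000782 to 0.00713 for these. Clk1 fell to 77.9 and 87.8 CPM in late G1, against 182 and 100.4 CPM in asynchronous cells (log2 -0.77, SE 0.25, edgeR adjusted p = 0.0314). Clk4 stood at 28.6 and 29.9 CPM in late G1, against 48.2 and 34.6 CPM in asynchronous cells (log2 -0.50, SE 0.18, edgeR adjusted p = 0.05001). Over 15 alternatives that change of Clk4 lay between -0.72, without asynchronous replicate 2, and -0.24, without asynchronous replicate 1, and it was called in 4, DESeq2 among them. The fall of Clk1 rested on asynchronous replicate 1: without it the log2 change was -0.27 (edgeR adjusted p = 0.0751), and the call was also lost without any other single library but asynchronous replicate 2 (0.0554 to 0.171). Without late G1 replicate 2 the calls of Srsf3 and Srsf10 were lost as well (edgeR adjusted p = 0.0546 and 0.0545), which left 6 members called, with 25.3% of all genes tested called.

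In the first hour after release, Srsf5 was the member called. It stood at 343 and 353 CPM in early G1, against 227 and 250 CPM in mitotic cells, a 1.46-fold rise (log2 0.55, SE 0.12, edgeR adjusted p = 0.0400). This 1 of 10 members stood against 4.63% of all genes tested, 3.21% as higher and 1.42% as lower. Srsf5 lost the call without any single mitotic or G1 library (edgeR adjusted p from 0.116 to 0.328), at log2 changes between 0.48 and 0.62.

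The other SR genes split in the size and sign of their point estimates. Srsf2 stood at 647 and 597 CPM in early G1, against 483 and 429 CPM in mitotic cells (log2 0.45, SE 0.15, 95% interval 0.11 to 0.78, edgeR adjusted p = 0.124). Srsf11 stood at 352 and 353 CPM in early G1, against 294 and 266 CPM in mitotic cells (log2 0.33, SE 0.19, edgeR adjusted p = 0.333). Srsf6 stood at 547 and 545 CPM in early G1, against 461 and 471 CPM in mitotic cells (log2 0.23, edgeR adjusted p = 0.228). In these 3 genes, and in Srsf7 and Srsf10 with log2 changes of 0.20 and 0.23, both early G1 libraries lay above both mitotic ones. Srsf1 and Srsf3 lay on the other side. Srsf1 stood at 690.1 and 671 CPM in early G1, against 769 and 712 CPM in mitotic cells (log2 -0.12, edgeR adjusted p = 0.615), and Srsf3 at 420.04 and 412 CPM, against 459 and 477 CPM (log2 -0.17, edgeR adjusted p = 0.468). Groups did not overlap for 9 of the 10 members, but neither did they for 61.8% of all genes tested.

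Clk1 stood at 91.2 and 99.5 CPM in early G1, against 136 and 120 CPM in mitotic cells (log2 -0.43, SE 0.24, edgeR adjusted p = 0.334), and Clk4 at 27.3 and 30.1 CPM, against 31.5 and 26.8 CPM (log2 -0.024). How many members were called between these states depended on the asynchronous libraries, which are in neither group but enter the shared estimate of spread. Without asynchronous replicate 1 or replicate 2 there were 5 calls each, Srsf2, Srsf5, Srsf6 and Srsf11 as higher and Clk1 as lower, and the fit of the early G1 and mitotic libraries alone gave 4. These fits also called more of all genes tested, 22.3% without asynchronous replicate 1, 22.4% without replicate 2 and 15.3% in the fit of 2 groups.

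Between late G1 and mitotic cells Srsf5 was called (343 and 340 CPM in late G1, against 227 and 250 CPM in mitotic cells, log2 0.52, SE 0.12, edgeR adjusted p = 0.0309), where 9.48% of all genes tested were called, 5.43% as higher and 4.04% as lower. Groups did not overlap for 9 of the 10 members, against 64.4% of all genes tested. It lost that call without any single mitotic or G1 library (edgeR adjusted p from 0.0868 to 0.223). Srsf2 had a log2 change of 0.44 (edgeR adjusted p = 0.0973) and Clk1 one of -0.63 (SE 0.25, edgeR adjusted p = 0.146), with 77.9 and 87.8 CPM in late G1, against 136 and 120 CPM in mitotic cells. Without asynchronous replicate 1 or replicate 2, 6 members were called: Srsf2, Srsf5, Srsf6, Srsf7 and Srsf11 as higher and Clk1 as lower (log2 -0.63 in both, edgeR adjusted p = 0.00178 and 0.00136). Of all genes tested, 27.5% were called in each of these fits. Early G1 and late G1 are both compared with the same mitotic libraries.

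Between late and early G1, edgeR called 0 of the 10 members and 0% of the 19101 genes (724 at an unadjusted p under 0.05, and 27 by DESeq2). Log2 changes of the 8 SR genes lay between -0.026 and 0.081. The 95% intervals for Srsf6, -0.24 to 0.23, and Srsf7, -0.21 to 0.30, were the narrowest among the members. Clk1 stood at 77.9 and 87.8 CPM in late G1, against 91.2 and 99.5 CPM in early G1 (log2 -0.20, 95% interval -0.76 to 0.36). In the fit of these 4 libraries alone Clk1 was called as lower (log2 -0.20, edgeR adjusted p = 0.0421), the 1 member called there, where 8.44% of all genes tested were called. Groups did not overlap for 3 members, Srsf3, Srsf11 and Clk1, against 50.3% of all genes tested. Over all 4 states together, 8 members were called, each SR gene, where 48.5% of all genes tested were called, and Clk1 and Clk4 had edgeR adjusted p = 0.0760 and 0.0793.

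Per kilobase of exon the SR genes spanned a wide range. Their order of means was the same in all states except for Srsf1 and Srsf7. These changed places in mitotic cells but overlapped there and in asynchronous cells. On this scale (RPKM, which counts every annotated exon and so understates genes with many retained introns), Srsf2, Srsf7 and Srsf1 headed asynchronous cells at 75.3 ± 13.6, 72.4 ± 1.96 and 71.6 ± 10.8 RPKM (SD, n = 2), and neighbours among these overlapped. Srsf6 (48.2 and 49.8 RPKM) and Srsf5 (46.8 ± 3.64 RPKM) followed and overlapped with each other, then Srsf3 at 36.9 ± 5.66 RPKM. Srsf11, Clk1 and Srsf10, at 21.4 ± 6.59, 17.3 ± 7.06 and 15.2 ± 4.11 RPKM, could not be ordered beyond their spread, and Clk4 was lowest at 7.15 ± 1.65 RPKM. In mitotic cells Srsf2 headed the order at 154 ± 13.1 RPKM, and Srsf1 overlapped with Srsf7 and Srsf5 with Srsf3.

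In late G1 each neighbour in the order was separate from the next. Srsf2 headed it at 210.0 ± 7.84 RPKM, followed by Srsf7 at 146 ± 5.90, Srsf1 at 120.0 ± 0.104, Srsf6 at 113 ± 1.75, Srsf5 at 85.7 ± 0.614, Srsf3 at 55.7 ± 1.61, Srsf11 at 42.4 ± 0.418 and Srsf10 at 26.2 ± 1.07 RPKM (SD, n = 2). Clk1 and Clk4 came last at 10.2 ± 0.854 and 5.05 ± 0.157 RPKM. Early G1 had the same order, again with no overlap between neighbours. Per length, Clk1 overlapped with Srsf10 and Srsf11 in asynchronous cells and lay below both in mitotic and G1 cells.

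**Figure D3:**
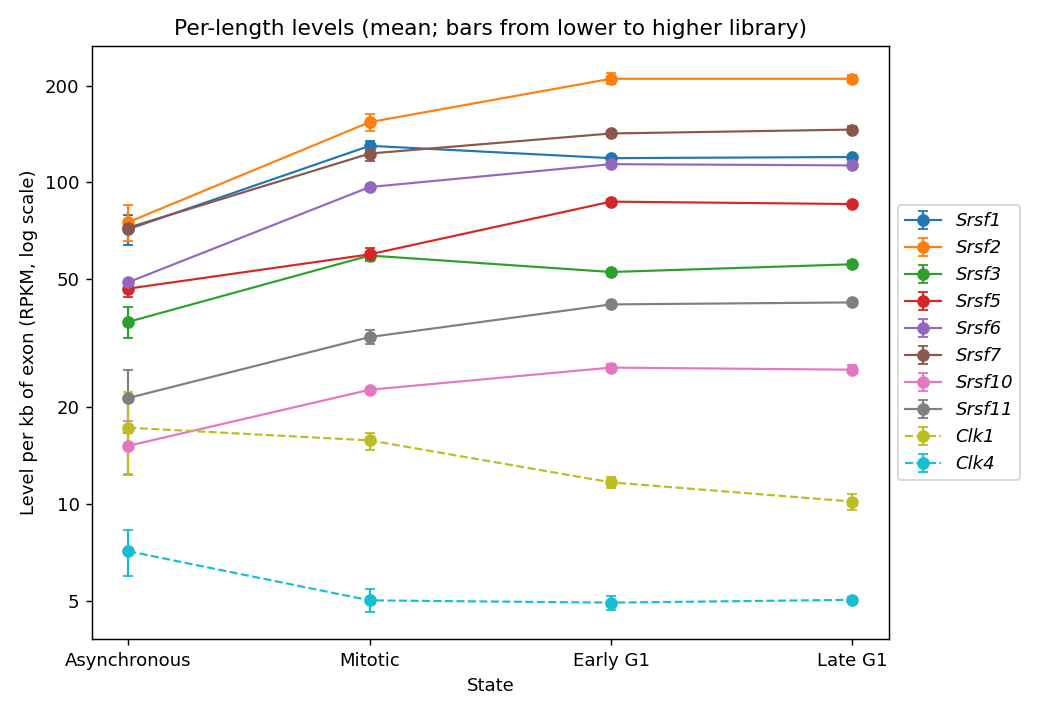
Level per kilobase of annotated exon (y axis, RPKM on a log scale) of the 10 transcripts in the 4 states (x axis); points are means of 2 libraries, bars run from the lower to the higher library, and dashed lines mark Clk1 and Clk4. Srsf2 has the highest mean in all states, up to 210.0 RPKM in G1, but overlaps with Srsf7 and Srsf1 in asynchronous cells, and the Clk1 line crosses below that of Srsf10 in mitotic cells (15.8 against 22.7 RPKM).

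Across the 8 libraries the SR genes varied together and the kinases apart from them. Pearson's r of log2 CPM ran from 0.616 to 0.992 over the 28 pairs of SR genes, with a median of 0.911, and from -0.919 to -0.277 over the 16 pairs of an SR and a CLK gene. Clk1 and Clk4 correlated with each other at r = 0.736. These 8 points share 4 states and their libraries' scaling, so the values describe these libraries only. The closest pair was Srsf6 and Srsf7, whose promoters are printed above, and the least alike SR genes were Srsf3 and Srsf5 (0.616), with highest means in mitotic cells for Srsf3 and in early G1 for Srsf5.

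**Figure D4:**
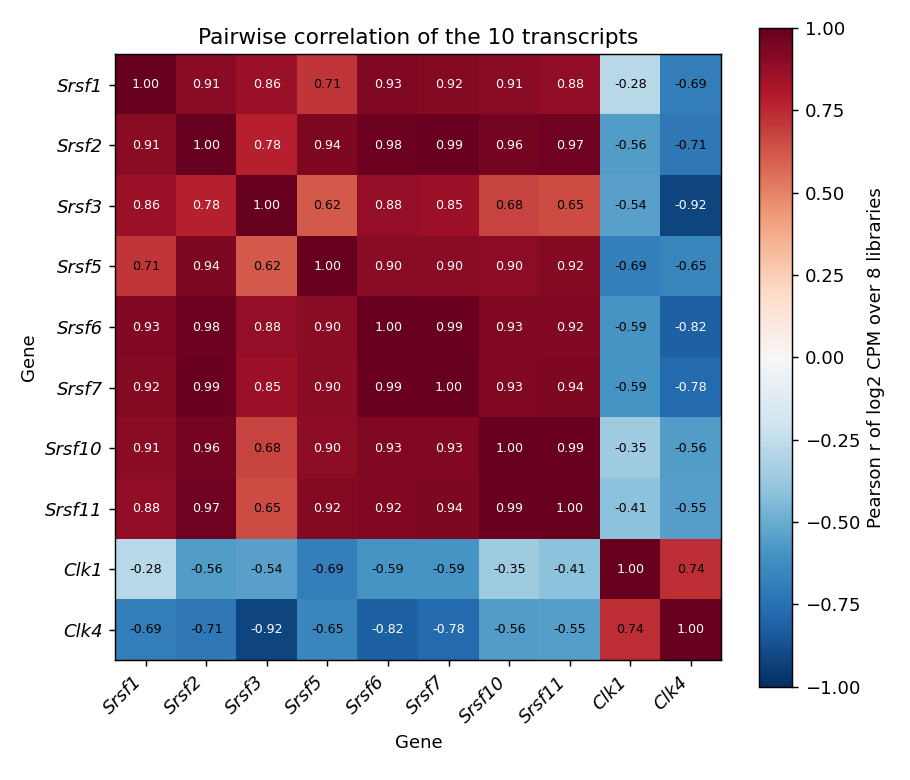
Pearson's r of log2 CPM over 8 libraries for each pair of the 10 transcripts (both axes list the genes; red is positive, blue negative). The 8 SR genes form a block with r of at least 0.616, while Clk1 and Clk4 correlate negatively with each of them and positively with each other (0.736).

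The mean standardised profile of the 10 members contains each of them, and most of them are SR genes. That it followed the SR genes and not the kinases therefore comes largely from the make-up of the set. The mean profile correlated at 0.752 to 0.988 with each SR gene, but at -0.353 with Clk1 and -0.613 with Clk4. Likeness was measured against 8173 other protein-coding genes whose average log2 CPM reached 4. Named here are those with the highest r over 8 libraries, which share 4 states, so the values describe these libraries only. Those most like the mean standardised profile of the 10 members over the 8 libraries were Rab5a (r = 0.998), an endosomal GTPase gene, Hipk1 (0.998), a nuclear kinase gene, Rnf2 (0.997), the ubiquitin ligase gene of Polycomb complex 1, Itga9 (0.996), an integrin gene, and Hnrnph1 (0.996), which encodes an RNA-binding splicing regulator. Hnrnph1 stood at 654 and 657 CPM in late G1, against 258 and 131.5 CPM in asynchronous cells. Those most like Clk1 were Ccdc77 (0.987), Ccnl2 (0.976), a cyclin gene linked to splicing, Brpf3 (0.975), Abraxas2 (0.970) and Ppp3cb (0.968). Ccnl2 stood at 112 and 114.5 CPM in late G1, against 184 and 133 CPM in asynchronous cells.

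Of 23 other SR and SR-related genes, 6 rose and 1 fell in mitotic against asynchronous cells, with a median log2 change of 0.12 (30.4% called, below the 40.7% of all genes tested). Tra2b, a splicing activator related to SR proteins, rose 1.53-fold (186 and 195 CPM in mitotic cells, against 117 and 132 CPM in asynchronous cells, edgeR adjusted p = 0.00517), and Scaf8, whose protein binds the tail of RNA polymerase II, rose by 0.75 on the log2 scale (edgeR adjusted p = 0.0115). The remaining classical SR genes were not called: Srsf4 had a log2 change of 0.59 (edgeR adjusted p = 0.0988) and Srsf9 one of -0.0092. Rsrp1, which encodes an arginine and serine rich protein, fell to 69.8 and 73.9 CPM in mitotic cells, against 295 and 302 CPM in asynchronous cells (log2 -2.06, SE 0.11, edgeR adjusted p = 3.55e-05).

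After release Rsrp1 and Pnn were the genes called in that list. They made up 8.7% of it in each G1 state against mitotic cells. Of all genes tested, 4.63% were called in early G1 and 9.48% in late G1. Rsrp1 rose 2.50-fold (176 and 183 CPM in early G1, against 69.8 and 73.9 CPM in mitotic cells, edgeR adjusted p = 0.00175) and stood 2.63-fold above the mitotic level in late G1 (edgeR adjusted p = 0.00188). Pnn, the gene of the SR-related protein pinin, rose 1.51-fold in early G1 (176 and 194 CPM, against 122 and 123 CPM in mitotic cells, edgeR adjusted p = 0.0454) and 1.54-fold in late G1 (edgeR adjusted p = 0.0277). Pnn thus resembled Srsf5 in the size of its change, and neither list had a gene called as lower between early G1 and mitotic cells.

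Among the other CLK genes, Clk3 fell in both G1 states against mitotic cells and Clk2 fell in late G1. Unlike those of the members, calls of single genes in this and the other lists were not followed in the fits with libraries left out. Of 13 genes for SR protein kinases, phosphatase and import, 1 rose (Ppp1r8, a nuclear inhibitor of protein phosphatase 1, log2 0.67, edgeR adjusted p = 0.00268) and 1 fell (Clk2, log2 -0.40, edgeR adjusted p = 0.0334) in mitotic against asynchronous cells. That was 15.4% called, below the 40.7% of all genes tested. Clk3 stood at 46.5 and 47.9 CPM in early G1, against 77.1 and 76.6 CPM in mitotic cells (log2 -0.70, SE 0.13, edgeR adjusted p = 0.0227), the 1 gene of this list called there. It made up 7.69% of the list, against 4.63% of all genes tested. In late G1, Clk3 stood at 42.4 and 39.3 CPM (log2 -0.91, edgeR adjusted p = 0.00690) and Clk2 at 47.97 and 47.1 CPM, against 73.8 and 63.2 CPM in mitotic cells (log2 -0.53, edgeR adjusted p = 0.0374), while Ppp1cc, a catalytic subunit gene of protein phosphatase 1, rose by 1.02 on the log2 scale (edgeR adjusted p = 0.0365). These genes made up 23.1% of the list, against 9.48% of all genes tested. Against asynchronous cells Clk2 and Clk3 had log2 changes of -0.93 and -0.56 in late G1 (edgeR adjusted p = 0.000817 and 0.00713), beside -0.77 for Clk1 and -0.50 for Clk4. Of the SRPK kinases, Srpk1 had a log2 change of -0.27 between late G1 and mitotic cells (edgeR adjusted p = 0.162) and Srpk2 one of -0.21.

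**Figure D5:**
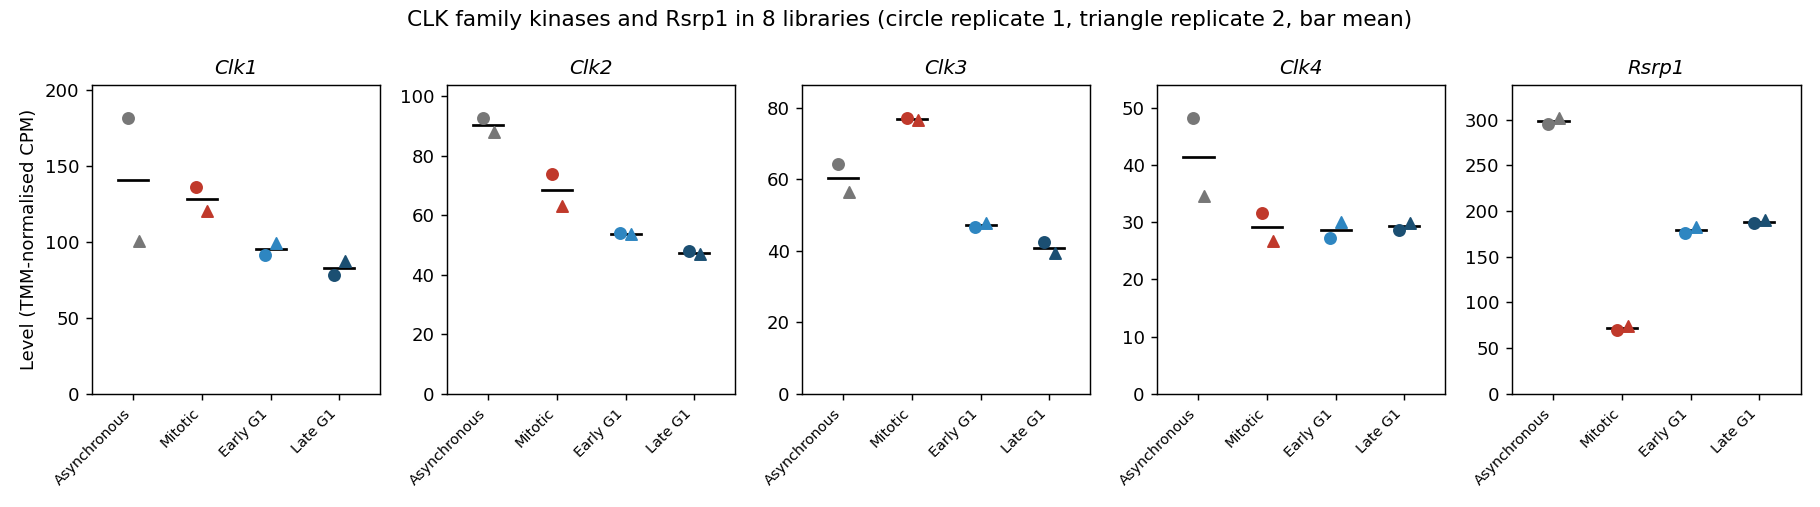
Levels of Clk1, Clk2, Clk3, Clk4 and Rsrp1 (y axis, TMM-normalised CPM from 0) in asynchronous, mitotic, early G1 and late G1 cells (x axis), with a circle for replicate 1, a triangle for replicate 2 and a bar for their mean. Both G1 states lie below both mitotic libraries for Clk1, Clk2 and Clk3, and Rsrp1 is lowest in mitotic cells (69.8 and 73.9 CPM).

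Genes of hnRNP proteins, RNA-binding proteins that often oppose SR proteins at splice sites, were counted in the same comparisons. In mitotic against asynchronous cells 15 of 25 rose and 1 fell (64% called, against 40.7% of all genes tested), with a median log2 change of 0.49. Hnrnpm, Syncrip and Hnrnph2 rose by 0.99, 0.93 and 0.99 on the log2 scale (edgeR adjusted p = 0.000402, 0.00112 and 0.00151). After release Hnrnpdl was the hnRNP gene called in early G1 (351 and 349 CPM, against 215.5 and 231 CPM in mitotic cells, edgeR adjusted p = 0.0184), and in late G1 it was Hnrnpdl and Hnrnpll (log2 0.52 and 0.66, edgeR adjusted p = 0.0247 and 0.0312). That was 4% and 8% of the hnRNP list, near the 4.63% and 9.48% of all genes tested. Of 48 core spliceosome genes 17 rose and 0 fell in mitotic against asynchronous cells (35.4% called, below the 40.7% of all genes tested), with a median log2 change of 0.24, led by Sf3b4, Dhx38 and Ddx23 (log2 1.10, 1.03 and 0.82, edgeR adjusted p = 0.000845, 0.00119 and 0.00119), and 0 were called between either G1 state and mitotic cells. Of 15 genes of nonsense-mediated decay and the exon junction complex, which act on transcripts with premature stop codons, 1 gene rose and 1 fell, Smg9 (log2 -0.92, edgeR adjusted p = 0.00968) in mitotic against asynchronous cells, against 40.7% of all genes tested called there, and Smg6 fell in late G1 against mitotic cells (log2 -0.94, edgeR adjusted p = 0.0111).

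In late G1 against asynchronous cells 9 of the 23 other SR and SR-related genes rose and 2 fell, as did 6 and 3 of the 13 genes for kinases, phosphatase and import, 17 and 1 of the 25 hnRNP genes, 19 and 6 of the 48 core spliceosome genes and 3 and 2 of the 15 decay and junction genes. Called shares were 47.8%, 69.2%, 72%, 52.1% and 33.3% in that order, against 48.7% of all genes tested, so those of the SR-related and core spliceosome lists lay near it and that of the decay list below. Tra2b rose 1.66-fold and Srsf4 1.78-fold there (edgeR adjusted p = 0.00194 and 0.0274), and Rsrp1 fell by 0.66 on the log2 scale (edgeR adjusted p = 0.00177). Between late and early G1, 0 genes of these 5 lists were called by edgeR.

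Cell type markers were counted in the same comparisons. Of all genes tested, 40.7% were called in mitotic and 48.7% in late G1 against asynchronous cells. Against mitotic cells, 4.63% were called in early G1 and 9.48% in late G1. In mitotic against asynchronous cells 20 of 24 fibroblast markers tested fell and 0 rose. There 5 of 11 macrophage markers rose and 0 fell, a called share of 45.5%, near that of all genes tested. In late G1 against asynchronous cells 21 fibroblast markers fell. Macrophage markers fell in late G1, 7 of 11 against asynchronous and 8 of 11 against mitotic cells. Of the 12 pluripotency markers 8 rose and 1 fell in mitotic against asynchronous cells, with a median log2 change of 0.64, close to the 0.66 of the members. In late G1 against asynchronous cells 5 rose and 1 fell, with a median of 0.16. Called shares of the pluripotency markers were 75% and 50% in that order, the latter near that of all genes tested. Between early G1 and mitotic cells 6 fibroblast markers rose while 9 of 11 macrophage markers fell. Lyz2, among the defining macrophage markers, stood at 0.755 and 0.116 CPM in early G1, against 28.7 and 30.8 CPM in mitotic cells, and was at 0 in both late G1 libraries. The part of these shifts in the values of the SR and CLK genes was not tested.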

How the data were processed

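RNA from 8 samples was sequenced as single reads of 50 bases with a stranded poly(A) kit, per the labels. The deposited table holds whole-number counts for each Ensembl gene, which the authors had not normalised. Per the submitters' processing notes, TopHat2, SAMtools, HTSeq and mm10 were used, with no versions named. Which annotation and strand setting the counting used was not given in the sources used here. Reads shared by near-identical copies, such as pseudogenes of SR genes, may have been lost.

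Symbols, positions and exon lengths came from GENCODE M21 (GRCm38), which named 99.9% of IDs, and promoters from RefSeq GRCm38.p6. Genes were filtered with filterByExpr (minimum count 10, 19101 kept), scaled by TMM and tested with edgeR 4.0.16 in R 4.3.3 by the quasi-likelihood test on the 8 libraries in 1 model with no blocking (residual degrees of freedom: 4), two-sided, with Benjamini-Hochberg adjustment over all genes tested. SE is the log2 change divided by the root of F. A gene was called at an adjusted p under 0.05. DESeq2 1.42.0, other scalings, filters, covariates and left-out libraries were alternatives. A floor of 3 counts equals 0.116 to 0.152 CPM and covers counting error only.

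All 10 members are named. From each related list the 3 called genes with the smallest p in each of 3 comparisons (mitotic against asynchronous, and each G1 state against mitotic) are named, together with the 5 genes most like the members' mean profile and the 5 most like Clk1. A gene that this rule picks is not reported here. Srsf4, Srsf9, Srpk1, Srpk2, and in late G1 against asynchronous cells Tra2b, Srsf4, Rsrp1, Clk2 and Clk3, and the markers given with values were added after their values were seen. The members and lists were chosen with earlier results of these data known. Labels name 2 clones but not their libraries, so p-values measure the spread between these samples.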

Additional observations from a re-analysis of the deposited data

How the results depend on the processing

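The direction of every SR gene against asynchronous cells was the same in all 15 alternatives. Clk1 reversed in mitotic against asynchronous cells without asynchronous replicate 1 (log2 0.36) and without replicate 1 of both groups (0.27); without asynchronous replicate 2 it was -0.50. With 2 libraries per state, calls between G1 and mitotic cells turned on the shared spread, and the cause was not tested.

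Leaving out each library in turn, members called ranged from 5 to 10 for mitotic against asynchronous cells, 0 to 5 for early G1 against mitotic, 0 to 6 for late G1 against mitotic, 6 to 10 for late G1 against asynchronous, 7 to 10 over any state and 0 to 0 for late against early G1. Genes called ranged from 4737 to 10382, 42 to 4518, 73 to 5546, 5096 to 11489, 6067 to 12556 and 0 to 25 in the same order. In the 2 groups compared alone, members called were 5 for mitotic against asynchronous, 4 for early G1 against mitotic, 4 for late G1 against mitotic and 1 for late against early G1. Genes called were 3883, 2759, 3959 and 1493, or 21.3%, 15.3%, 22.2% and 8.44% of all genes tested in these fits. Without a filter, 2 members were called for early G1 and 3 for late G1 against mitotic cells, and genes called were 2362 and 3289, with 58 for late against early G1. DESeq2 called 1412 genes for early G1 against mitotic and 27 for late against early G1. An added covariate marking the first asynchronous and the first mitotic library gave 3 members and 5882 genes (30.8% of those tested) for early G1 against mitotic. It gave 4 and 6593 (34.5%) for late G1 against mitotic, and 16 genes for late against early G1. Without replicate 1 of both groups, 8 members and 7918 genes were called for early G1 against mitotic, 7 and 8525 for late G1 against mitotic, 1 and 1518 for late against early G1, 11700 genes for mitotic against asynchronous and 15268 over any state.

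Replicate numbers were not taken as pairs, since the labels tie them to no clone: replicate differences correlated at 0.621 between asynchronous and mitotic cells and at -0.365 to 0.0572 between the other groups. With the replicate block, members called were 7 for mitotic against asynchronous, 0 for early G1 against mitotic, 1 for late G1 against mitotic and 9 for late G1 against asynchronous cells. Of all genes tested, 41.3%, 4.2%, 9.13% and 49.4% were called in the same order.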
